A study of Mus musculus with 12 samples.

Results

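De novo fatty acid synthesis, the route by which a cell builds fatty acids from acetyl-CoA, was followed here through 10 listed genes, namely Fasn, Acaca, Acly, Scd1, Elovl6, Me1, Acss2, Srebf1, Mlxipl and Aacs. A gene was taken where its symbol stood beside a probe in the deposited table of gene names. That rule found 8 of the 10, and Me1 was added as the 9th through its gene ID, because the table lists it under the older symbol Mod1. Acaca was not matched and is not analysed here. All 9 matched genes passed the filter on dim probes, as did 11705 of the 18002 genes measured. The RNA came from epididymal fat of male C57BL/6J mice, either wild type or with a global knockout of Siah2, which encodes an E3 ubiquitin ligase. From weaning at 4 weeks until 20 weeks of age the mice ate a diet with 10% fat (low fat) or 45% fat (high fat). Each of the 4 genotype and diet groups was measured as 3 pools of RNA on an Illumina bead array, so that n = 3 pools in every group below. Wild type mice on either diet and knockout mice on low fat numbered 10 per group, and knockout mice on high fat numbered 8. A pool held 2 to 4 animals and averages them, so errors between pools do not give the variation from animal to animal. Because the deletion was global, a difference between genotypes is not tied to a cell type.

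In this pathway ATP citrate lyase and acetyl-CoA synthetase make cytosolic acetyl-CoA, acetyl-CoA carboxylase turns it into malonyl-CoA, and fatty acid synthase joins these units into palmitate with NADPH that malic enzyme helps to supply. An elongase and a desaturase then make the longer and the monounsaturated products. Transcription of these genes is driven by SREBP-1c, which responds to insulin, and by ChREBP, which responds to glucose, and both act in white fat as well as in liver.

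The 9 genes did not move as a block. In wild type fat the high fat diet went with lower Elovl6, Acly and Aacs and higher Me1. In knockout fat it went with lower Elovl6 and Aacs. On low fat, knockout fat held more Me1, Acss2, Fasn and Srebf1 RNA than wild type fat, by 1.76 to 2.51 times. There 4.72% of all genes were called higher. On high fat no member passed the test, where 0.0854% of all genes were called, none of them higher. For no member did the diet effect differ between genotypes past the threshold. A member is said to rise or fall only where limma's moderated test gave a Benjamini-Hochberg adjusted p under 0.05 over all 11705 genes. Values are the authors' normalized intensities on a linear scale. Log2 changes and folds were fitted to log2(intensity + 50), which understates the change of dim genes. Levels are compared between groups for 1 probe at a time, never between probes.

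Several facts about the arrays bear on every comparison. Siah2 itself was dim, at 78.6 to 121 in the 6 wild type pools, 45.0 to 68.2 in 5 of the 6 knockout pools, and 102 in the pool labelled knockout on low fat, replicate 1, which is a wild type level. Siah2 was not called lower in the knockout on low fat (-0.31 ± 0.15; limma adjusted p = 0.200) or on high fat (-0.43 ± 0.15; 0.337). Averaged over both diets it was not called either (-0.37 ± 0.11; limma adjusted p = 0.0795). The labels do not say whether the probe lies in the deleted part. Adipocyte markers were bright in every pool, with none of 10 below an approximate detection floor of 27.9, and their mean log2 level lay between 11.69 and 12.47. Markers of epididymis and seminal vesicle, organs next to this fat pad, were at 13.08 ± 0.94 and 13.94 ± 1.49 (mean log2 level, SD) in wild type pools on low fat, 6.56 and 5.75 on high fat, 9.55 and 8.78 in knockout pools on low fat, and 7.20 and 5.72 on high fat. In knockout on high fat the pool of replicate 2 stood at 9.48 for the epididymis list, against 6.17 and 5.95. Skeletal muscle markers were highest, at 9.75, in the pool labelled knockout on low fat, replicate 1. Macrophage markers were at 9.07 and 9.34 on low fat and at 11.66 and 11.05 on high fat, in wild type and knockout. In such bulk RNA, fewer cells of a type and less RNA per cell cannot be told apart.

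**Figure D1:**
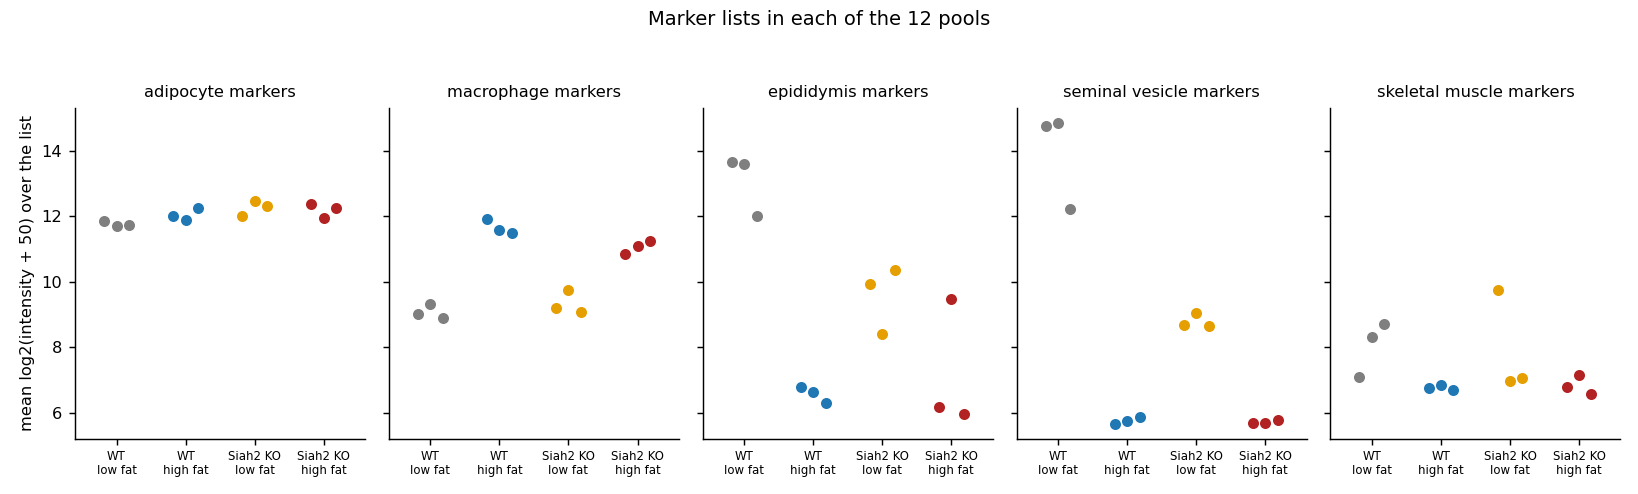
Mean log2(intensity + 50) of 5 marker lists, 1 point per pool, in the 4 groups. Wild type pools on low fat stand highest for epididymis and seminal vesicle markers, and adipocyte markers stay within 11.69 to 12.47 in all 12 pools.

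Promoter sequences from RefSeq (GRCm38.p6) are shown for the 3 members with the largest rises in knockout fat on low fat, Me1, Acss2 and Fasn, and for Elovl6, which had the largest fall with the diet. Each runs 5′ to 3′ from 250 bases before the annotated start of transcription to 50 bases after it. Capitals mark, on either strand, CCAAT (the CCAAT box), GGGCGG (the GC box), CANNTG (the general E-box pattern, not specific to 1 factor) and TCACNCCAC (a sterol response element).
Me1 (chr9:86695865-86696164, minus strand): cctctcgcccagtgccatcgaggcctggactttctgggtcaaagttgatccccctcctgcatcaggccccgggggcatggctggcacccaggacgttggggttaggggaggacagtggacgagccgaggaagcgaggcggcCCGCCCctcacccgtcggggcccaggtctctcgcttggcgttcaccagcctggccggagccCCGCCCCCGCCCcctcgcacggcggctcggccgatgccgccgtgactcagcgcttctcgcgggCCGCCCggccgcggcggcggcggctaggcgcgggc
Acss2 (chr2:155517793-155518092, plus strand): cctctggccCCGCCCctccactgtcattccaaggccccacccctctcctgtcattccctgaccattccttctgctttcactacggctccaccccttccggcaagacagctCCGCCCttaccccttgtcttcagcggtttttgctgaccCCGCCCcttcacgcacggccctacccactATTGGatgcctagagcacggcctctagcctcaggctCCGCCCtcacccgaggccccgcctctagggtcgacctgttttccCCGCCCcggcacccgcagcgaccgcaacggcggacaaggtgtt
Fasn (chr11:120824498-120824797, minus strand): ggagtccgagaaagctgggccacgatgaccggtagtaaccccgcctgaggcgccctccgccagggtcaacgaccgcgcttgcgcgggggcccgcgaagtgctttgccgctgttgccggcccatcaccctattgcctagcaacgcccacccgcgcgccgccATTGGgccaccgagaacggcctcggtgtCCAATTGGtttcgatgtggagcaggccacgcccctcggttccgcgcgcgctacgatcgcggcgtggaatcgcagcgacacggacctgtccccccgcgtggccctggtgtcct
Elovl6 (chr3:129532136-129532435, plus strand): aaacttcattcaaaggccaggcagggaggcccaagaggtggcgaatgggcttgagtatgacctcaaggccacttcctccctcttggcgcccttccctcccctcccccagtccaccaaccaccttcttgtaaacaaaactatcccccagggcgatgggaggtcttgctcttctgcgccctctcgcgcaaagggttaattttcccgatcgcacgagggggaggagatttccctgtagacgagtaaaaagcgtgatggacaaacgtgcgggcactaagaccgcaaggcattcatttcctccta
Me1 held 4 GC boxes, 2 of them side by side and starting 48 and 42 bases before the start. A second Me1 window, at another annotated start (chr9:86687228-86687527, minus strand, not printed), held no GC box, 1 CCAAT box and 3 E-boxes. Acss2 held 5 GC boxes and 1 CCAAT box, the latter 73 bases before the start. Fasn held 3 CCAAT boxes, at 90, 62 and 59 bases before the start, and an E-box at 61 that overlaps the last 2 of them. The Elovl6 window held none of the 4 motifs. A promoter was found for 9 of the 10 listed genes. Over the 12 windows of the tested members, 7 held a CCAAT box, 6 a GC box, 7 an E-box and 1, from Mlxipl, the sterol response element. Among all 32851 promoter windows of the same length these shares were 37.4%, 35.7%, 72.3% and 1.24%. A match describes letters only, and a window without one says nothing about a factor.

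Srebf1 encodes SREBP-1, the membrane-bound transcription factor that activates most of the other members. Its intensity in pools 1, 2 and 3 was 849, 636 and 503 in wild type on low fat and 807, 914 and 828 on high fat. In knockout fat it was 1322, 1203 and 1040 on low fat and 1087, 980 and 1109 on high fat. All 6 knockout pools were above all 6 wild type pools. On low fat Srebf1 rose in the knockout by 0.82 ± 0.16 (log2, SE; limma adjusted p = 0.0237), which is 1.76 times. On high fat the groups also did not overlap, but the difference of 0.30 ± 0.16 did not pass (limma adjusted p = 0.495). The diet changed it by 0.36 ± 0.16 in wild type (limma adjusted p = 0.0999) and by -0.16 ± 0.16 in knockout (0.696), neither past the threshold. A second Srebf1 probe was detected on 2 arrays and was not used.

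Mlxipl encodes ChREBP, the glucose-responsive partner of SREBP-1c at many of these promoters. Its intensity was 1376, 1014 and 1076 in wild type on low fat and 727, 890 and 954 on high fat. In knockout fat it was 903, 1243 and 969 on low fat and 946, 612 and 761 on high fat. The wild type groups did not overlap, with low fat higher, while the knockout groups overlapped. The fitted diet change was -0.41 ± 0.18 in both genotypes and did not pass in either (limma adjusted p = 0.102 in wild type and 0.290 in knockout). In wild type it passed after cyclic loess (-0.50; limma adjusted p = 0.0382) and with the adipocyte marker covariate (-0.54; 0.0126). Between genotypes it differed by -0.15 ± 0.18 on each diet, with 95% intervals from -0.55 to 0.26 on low fat and from -0.56 to 0.26 on high fat. Mlxipl was the 1 member whose estimate was lower in knockout on low fat.

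**Figure D2:**
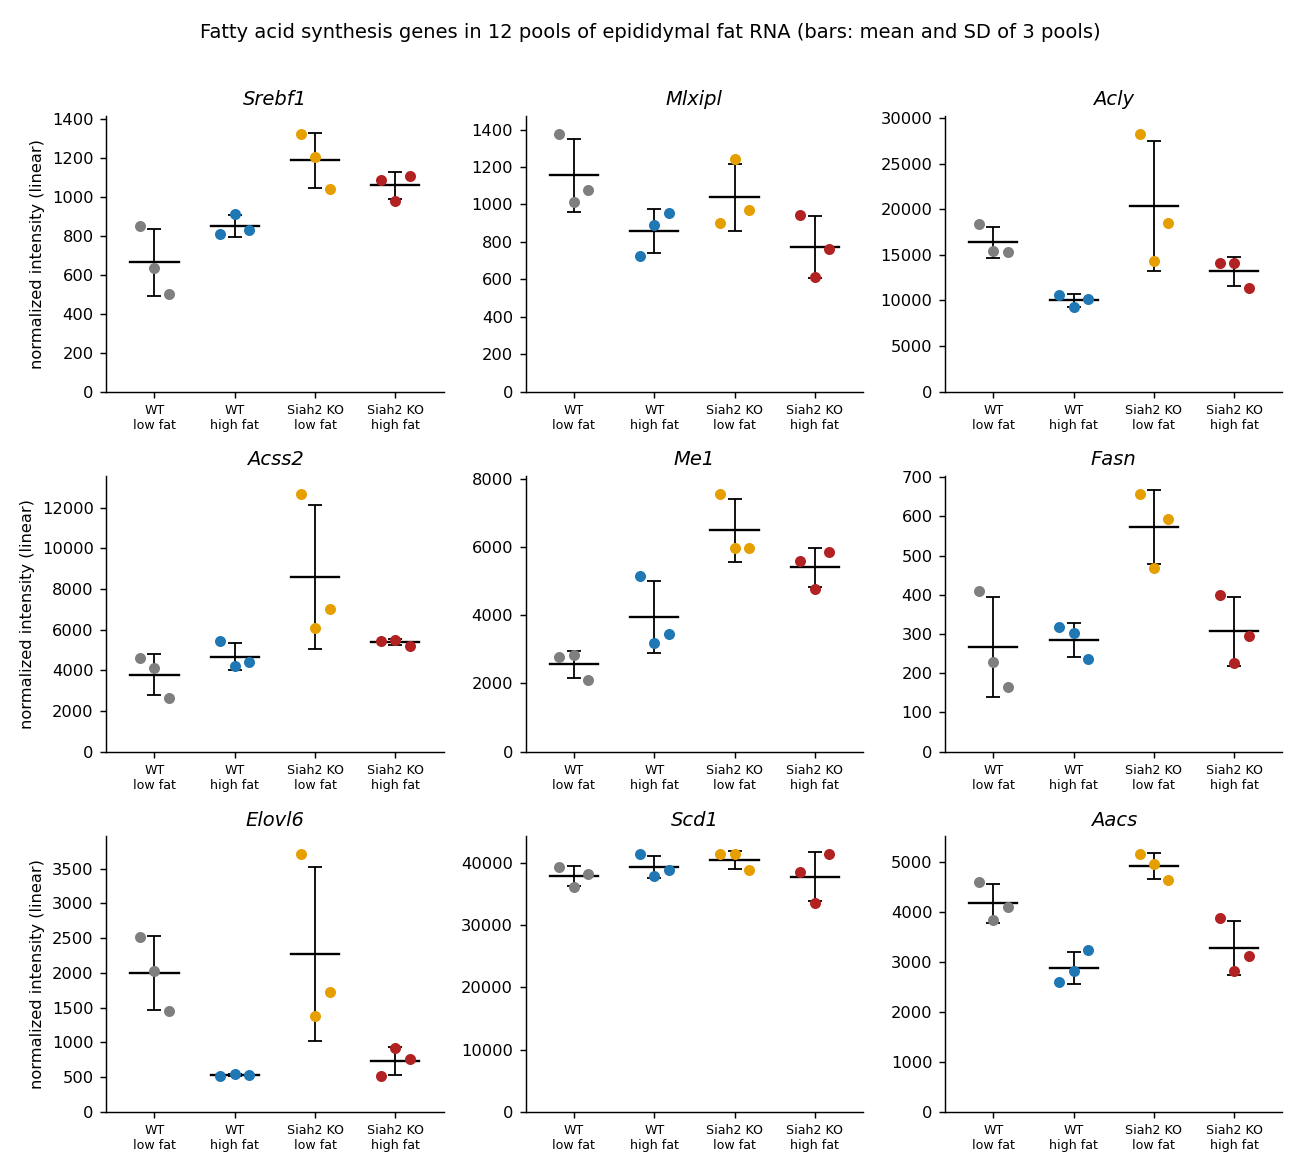
Normalized intensity (linear axis from 0) of the 9 measured members in each pool, with the mean and SD of 3 pools per group. Me1, Acss2, Fasn and Srebf1 have all 3 knockout low fat pools above the 3 wild type low fat pools, Elovl6 and Acly have both low fat groups above the high fat group of the same genotype, and Scd1 lies between 33487 and 41361 in all pools.

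Acly, ATP citrate lyase, cleaves citrate exported from mitochondria into the acetyl-CoA used for synthesis. Its intensity was 18365, 15453 and 15323 in wild type on low fat and 10570, 9251 and 10154 on high fat. In knockout fat it was 28241, 14362 and 18485 on low fat and 14145, 14084 and 11339 on high fat. High fat pools were below low fat pools of the same genotype without overlap, although the lowest low fat knockout pool exceeded the highest high fat one only narrowly. Acly fell with the diet in wild type by 0.71 ± 0.21 (log2, SE; limma adjusted p = 0.0213), a level 1.63 times lower. In knockout the estimate of -0.58 ± 0.21 did not pass (limma adjusted p = 0.177), although it did without knockout pool 2 on low fat (-0.80; limma adjusted p = 0.0301). On high fat the knockout pools were all above the wild type pools, but the difference of 0.39 ± 0.21 did not pass either (limma adjusted p = 0.489).

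Acss2, the cytosolic acetyl-CoA synthetase that makes acetyl-CoA from acetate, read 4589, 4130 and 2634 in wild type on low fat and 5416, 4190 and 4413 on high fat. Knockout pools read 12655, 6070 and 7037 on low fat and 5447, 5474 and 5212 on high fat. The 12655 came from the pool labelled knockout on low fat, replicate 1, and the other two pools of that group were still above every wild type pool. On low fat Acss2 rose in the knockout by 1.13 ± 0.27 (log2, SE; limma adjusted p = 0.0367), or 2.20 times. Its second probe read 122, 62.6 and 62.1 in those knockout pools against 30.6, 32.1 and 15.8 in wild type on low fat. With the diet Acss2 moved by 0.33 ± 0.27 in wild type and by -0.60 ± 0.27 in knockout, and neither passed (limma adjusted p = 0.351 and 0.290).

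Me1, the cytosolic malic enzyme that yields NADPH, had the largest genotype difference of the 9. It read 2765, 2822 and 2102 in wild type on low fat and 5145, 3198 and 3463 on high fat. Knockout pools read 7548, 5959 and 5966 on low fat and 5599, 4758 and 5858 on high fat. Every low fat knockout pool exceeded every other pool, and every low fat wild type pool was below every other pool. Me1 rose in the knockout on low fat by 1.33 ± 0.19 (log2, SE; limma adjusted p = 0.0119), or 2.51 times, and averaged over both diets by 0.90 ± 0.14 (0.0180). On high fat the genotype difference was 0.48 ± 0.19, with 1 wild type pool inside the knockout range (limma adjusted p = 0.381). It rose with the diet in wild type by 0.59 ± 0.19 (limma adjusted p = 0.0313). In knockout the diet change was -0.26 ± 0.19 and did not pass (0.554), although the groups did not overlap.

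Fasn, the fatty acid synthase, read 409, 228 and 164 in wild type on low fat and 317, 302 and 236 on high fat. Knockout pools read 657, 469 and 592 on low fat and 400, 226 and 295 on high fat. The low fat knockout pools were above all other 9 pools, and the remaining 3 groups overlapped one another. On low fat Fasn rose in the knockout by 1.04 ± 0.27 (log2, SE; limma adjusted p = 0.0430), or 2.05 times. With the diet it changed by 0.15 ± 0.27 in wild type (limma adjusted p = 0.692) and by -0.82 ± 0.27 in knockout (0.128). On high fat the genotypes differed by 0.07 ± 0.27, with a 95% interval from -0.52 to 0.66.

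Elovl6, the elongase that lengthens palmitate to stearate, had the largest diet change of the 9. It read 2519, 2028 and 1444 in wild type on low fat and 507, 537 and 535 on high fat. Knockout pools read 3706, 1381 and 1728 on low fat and 521, 922 and 758 on high fat. In each genotype all low fat pools were above all high fat pools. Elovl6 fell with the diet in both genotypes, by a log2 change of -1.79 ± 0.33 (SE) in wild type (limma adjusted p = 0.00218) and -1.47 ± 0.33 in knockout (0.0330). The levels were 3.47 and 2.77 times lower. Genotype differences were 0.09 ± 0.33 on low fat and 0.41 ± 0.33 on high fat, and neither passed (limma adjusted p = 0.891 and 0.645). Within the knockout groups the low fat pool with the least Elovl6, 1381, also had the lowest epididymis markers of its group (8.39), and the high fat pool with the most, 922, had the highest (9.48). The remaining pools did not keep that order. On low fat the pool with 1728 had markers at 10.36 and the pool with 3706 at 9.91. On high fat the pool with 758 had them at 5.95 and the pool with 521 at 6.17.

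Scd1, the stearoyl-CoA desaturase that makes oleate, lay at or near the top of the normalized scale in every pool. It read 39268, 36160 and 38164 in wild type on low fat, 41361, 37818 and 38856 on high fat, 41361, 41361 and 38856 in knockout on low fat, and 38491, 33487 and 41361 on high fat. On 4 arrays it held the top value of the normalized scale, 41361, so that larger values could not be told apart there. All 4 groups overlapped. Fitted changes ran from -0.11 to 0.10 over the 4 pairwise comparisons, each with an SE of 0.10, and none passed (limma adjusted p from 0.549 to 0.818).

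Aacs, acetoacetyl-CoA synthetase, returns the ketone body acetoacetate to cytosolic lipid synthesis. It read 4604, 3833 and 4092 in wild type on low fat and 2594, 2828 and 3231 on high fat. Knockout pools read 5156, 4958 and 4649 on low fat and 3874, 2824 and 3122 on high fat. In each genotype the low fat pools were above the high fat pools without overlap. Aacs fell with the diet by 0.53 ± 0.13 (log2, SE) in wild type (limma adjusted p = 0.0108) and by 0.59 ± 0.13 in knockout (0.0339). The levels were 1.44 and 1.51 times lower. On low fat the knockout pools were all above the wild type pools, yet the difference of 0.24 ± 0.13 did not pass (limma adjusted p = 0.276).

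**Figure D3:**
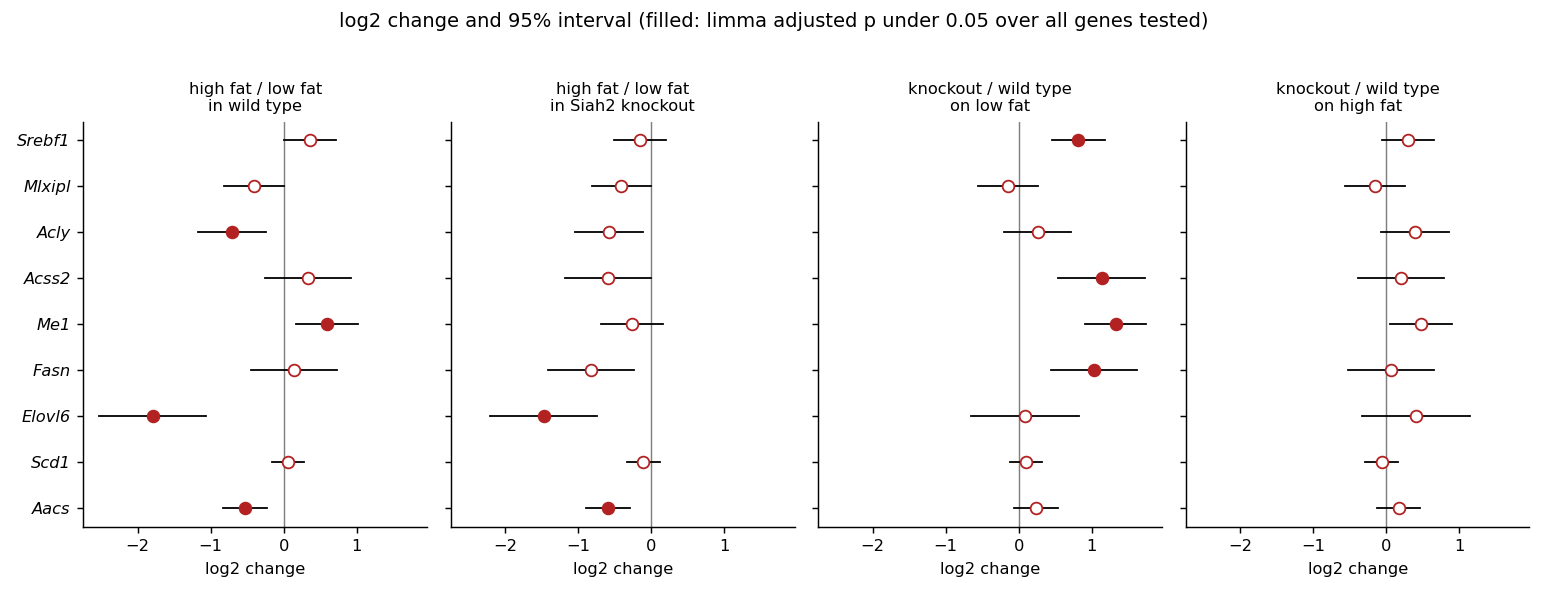
Log2 change of each measured member with its 95% interval in the 4 pairwise comparisons (filled points: limma adjusted p under 0.05 over all genes tested). Elovl6 and Aacs are filled for the diet in both genotypes, Acly and Me1 for the diet in wild type, and Srebf1, Acss2, Me1 and Fasn for the knockout on low fat.

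How the high fat diet went with these genes in wild type fat was the first comparison. Of the 9 members, 1 rose (Me1) and 3 fell (Acly, Elovl6 and Aacs), against a background in which 39.5% of all genes were called, 22.8% higher and 16.8% lower. The wild type groups did not overlap for 1 member that was higher and 4 that were lower, against 29.2% and 22.3% of all genes. The share called in either direction is close to the background, and the members' median change was 0.06, as was that of all genes. The fall of Acly was lost without wild type pool 1 on low fat (-0.62; limma adjusted p = 0.0668) or pool 2 on high fat (-0.65; 0.0629). The rise of Me1 was lost without wild type pool 3 on low fat (0.46; limma adjusted p = 0.115) or pool 1 on high fat (0.38; 0.107). Without wild type pool 1 on low fat, Srebf1 passed as higher (0.54; limma adjusted p = 0.0152). All 15 measured epididymis and all 8 seminal vesicle markers fell in the same comparison, and all 11 macrophage markers rose. With the mean of the epididymis markers as a covariate Elovl6 changed by -0.39 ± 0.72 (SE), Acly by -0.06 ± 0.50, Aacs by -0.93 ± 0.33 and Me1 by 0.62 ± 0.50. None passed (limma adjusted p = 0.986, 0.994, 0.682 and 0.950), and that fit called 2 of all genes. Because this covariate follows the groups, diet and marker level cannot be told apart there.

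The diet comparison in knockout fat gave estimates below 0 for all 9 members, with a median of -0.58 against -0.01 for all genes. Of the 9, 2 fell (Elovl6 and Aacs) and none rose, where 0.82% of all genes were called lower, 3.55% higher and 4.37% in either direction. Another 4 members, Fasn, Acly, Me1 and Acss2, also had every high fat pool below every low fat pool. That made 6 of 9 without overlap in this direction, against 9.82% of all genes. Both calls were near the threshold. Elovl6 lost its call without any 1 of wild type pool 2 on either diet, knockout pools 1 and 3 on low fat, and knockout pools 1 and 3 on high fat, with limma adjusted p from 0.0527 to 0.126. Aacs lost it without any 1 of wild type pool 3 on low fat, wild type pool 2 on high fat, knockout pools 1 to 3 on low fat, or knockout pools 2 and 3 on high fat (limma adjusted p from 0.0516 to 0.128). Over the fits without each of the 12 pools in turn the change ranged from -1.76 to -1.06 for Elovl6 and from -0.72 to -0.49 for Aacs. Without the pools labelled knockout on low fat, replicate 1, and knockout on high fat, replicate 2, the changes were -1.23 and -0.46 (limma adjusted p = 0.0722 and 0.245). With the epididymis covariate they were -0.96 ± 0.37 (SE) and -0.74 ± 0.17 (limma adjusted p = 0.365 and 0.117), in a fit that called 15 of all genes. Of the epididymis markers 1 of 15 fell in this comparison, and 5 of 8 seminal vesicle markers fell.

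Knockout against wild type on low fat was the comparison with the most members called higher. Of the 9, 4 rose (Me1, Acss2, Fasn and Srebf1) and none fell, where 4.72% of all genes were called higher, 3.18% lower and 7.9% in either direction. With Aacs, 5 members had every knockout pool above every wild type pool and none the reverse, against 19.1% and 13.9% of all genes. The members' median change was 0.26, against 0.04 for all genes. The rise of Me1 kept its call without each of the 12 pools in turn (1.19 to 1.40). It lost the call when only the compared groups were fitted, as did the other 3 risers, at an unchanged 1.33 for Me1 (limma adjusted p = 0.0704). That fit called 4 of all genes. Srebf1 lost its call without wild type pool 2 on low fat or knockout pools 2 or 3 on low fat (limma adjusted p from 0.0602 to 0.091). Acss2 lost it without wild type pools 1, 2 or 3 on low fat, knockout pools 2 or 3 on low fat, or knockout pool 1 on high fat (limma adjusted p from 0.0507 to 0.0971). Fasn kept its call only without wild type pool 1 on low fat or knockout pool 2 on high fat, and without any other pool its limma adjusted p lay between 0.0503 and 0.131. Without the pool labelled knockout on low fat, replicate 1, and knockout pool 2 on high fat, the changes were 1.21 for Me1, 0.82 for Acss2, 0.74 for Srebf1 and 0.94 for Fasn (limma adjusted p = 0.0133, 0.0421, 0.0339 and 0.0602).

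In the same comparison 3 of 10 adipocyte markers rose (Cidec, Pnpla2 and Lep) and none fell. The mean log2 level of the 10 was 11.76 in wild type and 12.26 in knockout pools. Their median change was 0.63, against 0.26 for the members. Of these markers, 8 of 10 had every knockout pool above every wild type pool, against 5 of 9 members. Of the other tissues' markers, 8 of 15 for epididymis and 8 of 8 for seminal vesicle fell. With the epididymis covariate the 4 changes were 1.34 for Me1, 1.57 for Acss2, 1.10 for Fasn and 0.85 for Srebf1, and none passed (limma adjusted p from 0.588 to 0.734). With the mean of 8 adipocyte markers as a covariate, chosen after the data were seen, they were 1.31, 1.40, 0.90 and 0.77, and none passed (limma adjusted p from 0.216 to 0.352). Because these markers differ between the groups, marker level and genotype cannot be told apart here.

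On high fat, no member passed the test between knockout and wild type by limma, where 0.0854% of all genes were called, all lower. An unadjusted limma p under 0.05 was reached by 1 of the 9 members, Me1, and by 1349 of all 11705 genes. Changes ran from -0.15 for Mlxipl to 0.48 for Me1, with a median of 0.21 against -0.02 for all genes. For Acly and Srebf1 every knockout pool was above every wild type pool, against 6.36% of all genes in that direction. Averaged over both diets, Me1 (0.90) and Srebf1 (0.56 ± 0.12; limma adjusted p = 0.0369) rose in the knockout, where 1.7% of all genes were called higher, 1.08% lower and 2.78% in either direction. The averaged call of Me1 was lost without knockout pool 1 or 3 on high fat (0.89 and 0.87; limma adjusted p = 0.0509 and 0.0641). That of Srebf1 was kept only without wild type pool 1 or 3 on low fat, and its limma adjusted p without any other pool lay between 0.0505 and 0.105.

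Whether the diet effect differed between genotypes was tested as an interaction. No member passed by limma, where 0.103% of all genes were called, 0.0598% higher and 0.0427% lower. An unadjusted limma p under 0.05 was reached by 4 of the 9 members and by 2393 of all 11705 genes. The knockout diet change minus the wild type diet change was -0.97 ± 0.38 for Fasn, -0.93 ± 0.38 for Acss2, -0.85 ± 0.27 for Me1 and -0.52 ± 0.23 for Srebf1 (limma adjusted p from 0.152 to 0.239). For Elovl6 it was 0.32 ± 0.47, with a 95% interval from -0.72 to 1.36, and for Aacs -0.06 ± 0.19, with an interval from -0.49 to 0.36. The comparisons share pools: wild type on low fat is the control of both the diet comparison in wild type and the knockout comparison on low fat. A value that is low in those 3 pools therefore raises both differences.

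Across the 12 pools the members followed their common mean unevenly. With each member scaled to its own mean and SD, the mean of the 9 was highest in the 3 knockout pools on low fat, at 1.45, 0.77 and 0.68. In the other 9 pools it lay between -0.67 and 0.40. Pearson's r to that mean, which includes the gene itself, was 0.92 for Fasn, 0.81 for both Acss2 and Aacs, 0.77 for Acly and 0.38 for Mlxipl, the lowest. Among all other genes the 10 most like the mean over the 12 pools were St3gal6 (0.93), Ddo, Pygl and Pdha1 (0.92 each), Fmo1, Cpq and LOC100043671 (0.91 each), Ces1f (0.90), and Timm21 and Mtus1 (0.88 each). These correlations describe 12 pools that share their groups and carry no test. LOC100043671 averaged 17991 in knockout on low fat, against 9359 and 5077 in wild type fat on the low and the high fat diet and 6462 in knockout fat on the latter. Ces1f, a carboxylesterase gene, averaged 3145 against 1558, 927 and 1367 in the same order.

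Genes that feed the pathway with NADPH and carbon gave 19 tested of 20 listed. In knockout on low fat 9 of them rose and 1 fell, with a median change of 0.40, where 4.72% of all genes were called higher, 3.18% lower and the median was 0.04. The median change of the adipocyte markers in this comparison was 0.63. Some of these calls lay near the threshold, such as Pdhb (limma adjusted p = 0.0487). Fitting only the groups compared called 4 of all genes. The risers included Slc25a1, the citrate carrier that exports citrate for Acly, which read 3358, 2199 and 2269 in wild type and 4982, 3867 and 4155 in knockout pools and rose by 0.74 ± 0.18 (limma adjusted p = 0.039). Pgd and Taldo1, enzymes of the pentose phosphate pathway, rose by 0.54 and 0.51. G6pdx, Tkt and Rpe of that pathway were not called (0.34, 0.17 and 0.32; limma adjusted p = 0.309, 0.493 and 0.0941). Pcx, pyruvate carboxylase, rose by 0.75, and Pdhb and Dlat, subunits of pyruvate dehydrogenase, by 0.61 and 0.64. Pdk4, a kinase that turns pyruvate dehydrogenase off, rose as well, by 1.20 ± 0.28, and citrate synthase Cs by 0.46. In wild type fat 8 of the 19 rose with the high fat diet, among them G6pdx and Idh1, which make NADPH, by 0.76 and 0.61, and 2 fell, against 22.8% and 16.8% of all genes. One of these 2, Aldoc, read 552, 286 and 240 on low fat and lay below the approximate floor in all 3 high fat pools, so it was at least 12 times lower (limma adjusted p = 0.000771). In knockout fat no gene of the list rose with the diet and 2 fell, Tkt by 0.75 ± 0.15 and Pdha1 by 0.46 ± 0.11. There 3.55% of all genes were called higher and 0.82% lower.

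Other enzymes of chain elongation and desaturation gave 13 tested of 18 listed. With the diet in wild type 7 rose and 3 fell, against 22.8% and 16.8% of all genes. The desaturases Fads1 and Fads2 fell along with Elovl6, Fads1 from 11232, 12130 and 14015 on low fat to 4613, 4240 and 4155 on high fat. Fads2 read 199, 326 and 477 on low fat and was below the approximate floor in all high fat pools, at least 11.3 times lower (limma adjusted p = 0.00297). Elovl1, Elovl5, Fads3 and Hsd17b12, a reductase of the elongation cycle, rose by 0.70, 0.28, 0.90 and 0.65. With the epididymis covariate the estimates of Elovl5 and Fads1 turned sign, to -0.04 and 0.11. In knockout fat none of the 13 passed for the diet by limma, where 4.37% of all genes were called. An unadjusted limma p under 0.05 was reached by 1 of the 13 and by 1986 of all 11705 genes. In knockout pools on low fat, Fads1 read 14649, 5379 and 9707, in the order of the Elovl6 values 3706, 1381 and 1728. In knockout pools on high fat the order was not shared. There Fads1 read 5067, 8628 and 4365, and Elovl6 read 521, 922 and 758. Hsd17b12 and Hacd1 rose in the knockout on low fat, by 0.76 and 0.44, and Hacd3 fell by 0.44. In that comparison 4.72% of all genes were called higher and 3.18% lower.

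**Figure D4:**
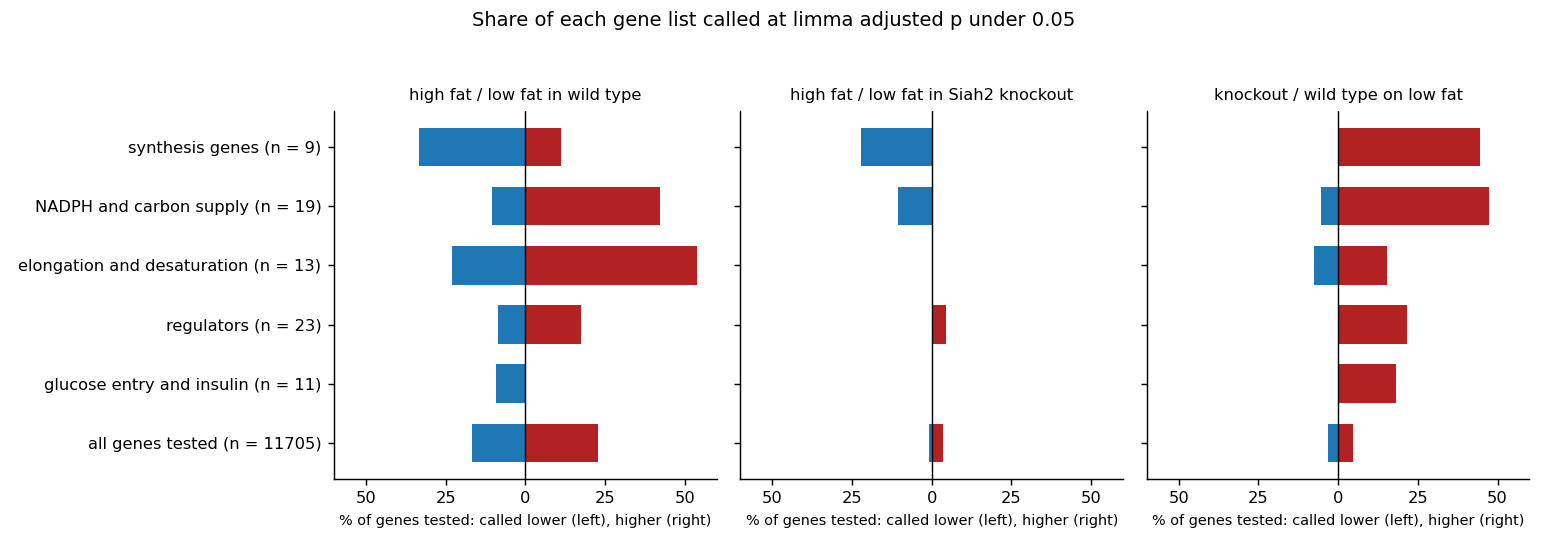
Share of the tested genes in each list called lower (left) or higher (right) at a limma adjusted p under 0.05, for the diet in each genotype and for the knockout on low fat, with all 11705 genes as the background. In knockout against wild type on low fat, 4 of 9 synthesis genes and 9 of 19 supply genes are called higher.

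Of 23 tested regulators of the pathway out of 27 listed, 4 rose and 2 fell with the diet in wild type, 1 rose in knockout, and 5 rose in the knockout on low fat. Of all genes, 22.8% and 16.8% were called higher and lower with the diet in wild type, so the regulators' shares there were below the background. The shares called higher were 3.55% for the diet in knockout and 4.72% for the knockout on low fat. Insig1, which holds SREBP in the endoplasmic reticulum and is itself an SREBP target, was called in 3 comparisons. It read 1531, 1637 and 1649 in wild type on low fat, 4947, 3636 and 3177 on high fat, 2961, 2932 and 2388 in knockout on low fat and 5145, 3748 and 5876 on high fat. It rose with the diet by 1.24 ± 0.19 in wild type and by 0.81 ± 0.19 in knockout, and in the knockout on low fat by 0.76 ± 0.19 (limma adjusted p = 0.0416). Nr1h3, the liver X receptor that induces Srebf1, rose with the diet in wild type by 0.92 ± 0.19 and in the knockout on low fat by 0.73 ± 0.19. Mid1ip1, an activator of acetyl-CoA carboxylase, fell with the diet in wild type from 6200, 4649 and 4333 to 806, 937 and 752. Scap, the escort protein of SREBP, fell there too, by 0.57 ± 0.18. For glucose entry and insulin signalling, 11 of 15 listed genes were tested. Slc2a4, the insulin-regulated glucose transporter GLUT4, read 376, 202 and 251 in wild type and 716, 664 and 557 in knockout on low fat and rose by 1.12 ± 0.26 (limma adjusted p = 0.0360). Irs2, an insulin receptor substrate, rose in that comparison by 0.94 ± 0.24, and these 2 were the only genes of the list called there. With the diet in wild type Slc2a1, another glucose transporter, fell and none rose. With the epididymis covariate the diet estimates of Mid1ip1 and Slc2a1 turned sign, to 0.57 and 0.08. None of these 4 lists had a gene called between genotypes on high fat by limma, and 1 gene of each of the first 3 had an unadjusted p under 0.05. Of all 11705 genes, 0.0854% were called there and 1349 had an unadjusted limma p under 0.05.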

How the data were processed

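Total RNA pools, 12 in all, were hybridised to Illumina mouse bead arrays. Per the submitters' processing notes the authors used GenomeStudio, with no version named. The deposited normalized values are linear intensities, 22.9% of them below 0, with column medians from 33.3 to 33.6. The authors' further tables hold raw intensities and a detection p-value per probe, under array codes that no label ties to a sample. These were joined row by row on signals equal within 0.05, and gave gene names, the number of arrays that detected a probe, and raw medians from 120 to 212. A table of gene names also held 20 signal columns of no sample of the series, which were not used. Depth has no meaning for arrays, and the number of arrays limits the precision.

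Symbols were updated through the gene ID (23788 probes) or the accession (685 probes). Probes with a detection p under 0.05 on at least 3 of 12 arrays were kept, and the brightest kept probe stood for a gene. The test was limma 3.58.1 in R 4.3.3 on log2(intensity + 50), with 4 group means, 8 residual degrees of freedom, two-sided tests and Benjamini-Hochberg adjustment over 11705 genes. It was tested on simulated data. A probe below the intensity of 27.9, the level reached by the least sensitive array's detected share, was treated as not above background, and a fold against a group wholly below it is a lower bound. The labels name no batch, and p-values measure the spread between pools of animals.

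All members were named, along with the 10 genes most like the members' mean. Of 4 further pathway lists, any gene that passed could be named; some are, and the others are only counted. One gene was left out of these lists and is not reported here. Members and lists were chosen with earlier results of these data known. Alternatives were the offset, the filter, cyclic loess, the probe rule, the groups in the fit, an intensity trend, marker covariates, a replicate block and leaving out pools. Same-numbered pools of different groups did not deviate together: 3 of 18 pairs had a correlation over 0.1.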

Additional observations from a re-analysis of the deposited data

Results flagged for a closer look

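The diet effect on Me1 was flagged because the diet groups did not overlap in either genotype, in opposite directions. In wild type fat every high fat pool (5145, 3198 and 3463) was above every low fat pool (2765, 2822 and 2102). In knockout fat every high fat pool (5599, 4758 and 5858) was below every low fat pool (7548, 5959 and 5966), narrowly for 5858 against 5959. The fitted diet change in knockout, -0.26 ± 0.19 (log2, SE), did not pass (limma adjusted p = 0.554). How many of all genes separate in this way was not counted. The knockout diet change minus the wild type diet change was -0.85 ± 0.27 (log2, SE), which did not pass as an interaction (limma adjusted p = 0.152). Over the alternatives this difference ranged from -0.98 to -0.64, and its adjusted p was never under 0.129.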

How the results depend on the processing

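Of the members' calls, 4 in wild type with the diet, 2 in knockout with the diet, 4 in knockout on low fat and 2 averaged over diets, none remained with the epididymis marker mean as a covariate, which gave 0 in each comparison. Fitting only the groups compared gave 0 higher members for the diet in wild type, 0 lower for the diet in knockout and 0 higher for knockout on low fat. Cyclic loess gave 0 higher and 4 lower members for the diet in wild type and 2 higher for knockout on low fat, and an offset of 16, which left out 37 genes, gave 1 for the averaged comparison. The replicate block gave 0 lower members for the diet in knockout, 1 higher for knockout on low fat and 1 averaged. It moved no other count of members, and 1 pool correlated best with its own number. Of the settings added after seeing the data, the adipocyte covariate gave 0 higher and 4 lower members for the diet in wild type, 0 for knockout on low fat and 0 averaged. Leaving out the pools labelled knockout low fat 1 and knockout high fat 2 gave 0 lower members for the diet in knockout and 1 averaged. Leaving out 1 pool at a time gave 0 to 2 higher and 2 to 3 lower members for the diet in wild type, 0 to 2 lower in knockout, 1 to 4 higher in knockout on low fat and 0 to 2 averaged. It gave 0 members for knockout on high fat and for the interaction. Under the epididymis covariate 8 called diet changes in wild type turned sign, to -0.050 for Taldo1, -0.057 for Pcx, -0.036 for Elovl5, 0.11 for Fads1, -0.15 for Hacd2, -0.024 for Mbtps2, 0.57 for Mid1ip1 and 0.075 for Slc2a1. That covariate follows the groups, and the cause was not tested. Over all settings the number of all genes called ranged from 2 to 4797 for the diet in wild type (4629 as reported), 15 to 845 in knockout (511), 4 to 1766 for knockout on low fat (925), 0 to 33 on high fat (10), 4 to 548 averaged (325) and 0 to 124 for the interaction (12). Signal near background limits Siah2 and the dim genes of the lists, and the top of the scale limits Scd1.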
